A study of Caenorhabditis elegans with 24 samples.

Results

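cel-mir-42 (mir-42) is a microRNA hairpin of Caenorhabditis elegans, and both of its arms, miR-42-3p and miR-42-5p, are described here across 6 alg-1 genotypes in ALG-1 immunoprecipitates (IP) and in total small RNA. The hairpin gives 2 of the 450 rows of the count table, 1 for each arm. It was chosen by measured values: miR-42-3p was lower in F180del than in wild type (WT) in total RNA, while other members of the miR-35 family were higher in F180del and G199S. So for those 2 genotypes against WT, and for IP against total RNA in F180del, G199S and WT, its values are given as a description, without a test.

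The miR-35 family consists of the hairpins mir-35 to mir-42, which share a seed on their 3p arms. It is made in the germline and the embryo, acts redundantly and is essential for embryonic development. An Argonaute protein such as ALG-1 takes up the duplex cut from a hairpin, keeps 1 strand as the guide and releases the other, the passenger, which is usually degraded. In the miR-35 family the 3p arm is the guide. ALG-2 is a paralogue of ALG-1 that also carries microRNAs.

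In the WBcel235 annotation, mir-42 (WBGene00003270) lies on chromosome II from 11889811 to 11889905 on the plus strand, a length of 95 bases. It lies in no protein-coding gene, and a noncoding RNA gene on the opposite strand, ZK930.12, overlaps it. The other members, mir-35 to mir-41, form a cluster on the same chromosome from 11537608 to 11538404, at least 351406 bases away. The nearest hairpins on the same strand belong to other families: mir-43, of the miR-2 family, follows mir-42 at a distance of 4 bases, and mir-44, of the miR-44 family, at 117 bases.

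The animals were whole C. elegans hatched in buffer without food and collected after 45 h of feeding at 20 °C. Of the 6 genotypes, 4 carried an alg-1 allele modelled on a change in human AGO1 found in neurodevelopmental disorders: F180del (ma447), G199S (ma443), V254I (zen25) and H751L (zen18). The null carried alg-1(tm492), and WT was the strain N2. No other allele or treatment is named in the labels for any genotype. Each genotype has 2 libraries of ALG-1 IP and 2 of total RNA, 24 in all. Whether the 2 libraries of a group stem from different cultures is not stated. The p-values therefore set a difference against the variation among these particular libraries, which could be technical in part or in full. The null IP is the material recovered where the allele is labelled as a null, so it serves as the background of the IP.

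Each library held between 3940626 and 13835895 microRNA reads. Levels are in RPM, reads scaled to a common total of microRNA reads per library, and a count of 0 allows a level of up to 0.217 to 0.761 RPM. The null IP libraries detected 153 and 232 microRNAs, against 257 to 351 over the 12 total libraries. Markers of muscle (miR-1-3p), glia (miR-228-5p), intestine (miR-60-3p) and neurons (miR-124-3p and miR-791-3p) were detected in every library, with 6.876 to 147.7 RPM of miR-124-3p in IP and 39.95 to 715.3 RPM in total RNA. Replicate total libraries differed in these markers: miR-124-3p had 75.63 and 232.6 RPM in V254I, 70.21 and 688.3 RPM in H751L and 97.58 and 715.3 RPM in the null. The other neuronal marker, miR-791-3p, went the other way in these libraries. It had 34.46 and 14.26 RPM in V254I, 15.05 and 3.189 RPM in H751L and 16.58 and 11.09 RPM in the null. Over the same libraries, miR-228-5p had 60554 and 17064 RPM in H751L and 69060 and 21738 RPM in the null. The part of these differences in the values of mir-42 was not tested. The amount of ALG-1 and of RNA recovered in the IP is unknown, so levels are relative to the other microRNAs of the same library. In these whole animals, fewer cells that make mir-42 and less miR-42 per cell cannot be told apart.

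miR-42-3p was an abundant microRNA in every library, ranking 36 to 53 in IP and 15 to 34 in total RNA. Its highest IP level, 3203 RPM, was below its lowest total level, 3674 RPM, over all 24 libraries. miR-42-5p was a rare arm that went the other way, from 9.563 to 84.63 RPM in IP and from 1.185 to 17.91 RPM in total RNA. It rested on 79 to 968 reads per library in IP and on 15 to 176 in total RNA, so its levels are less precise than those of miR-42-3p.

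**Figure D1:**
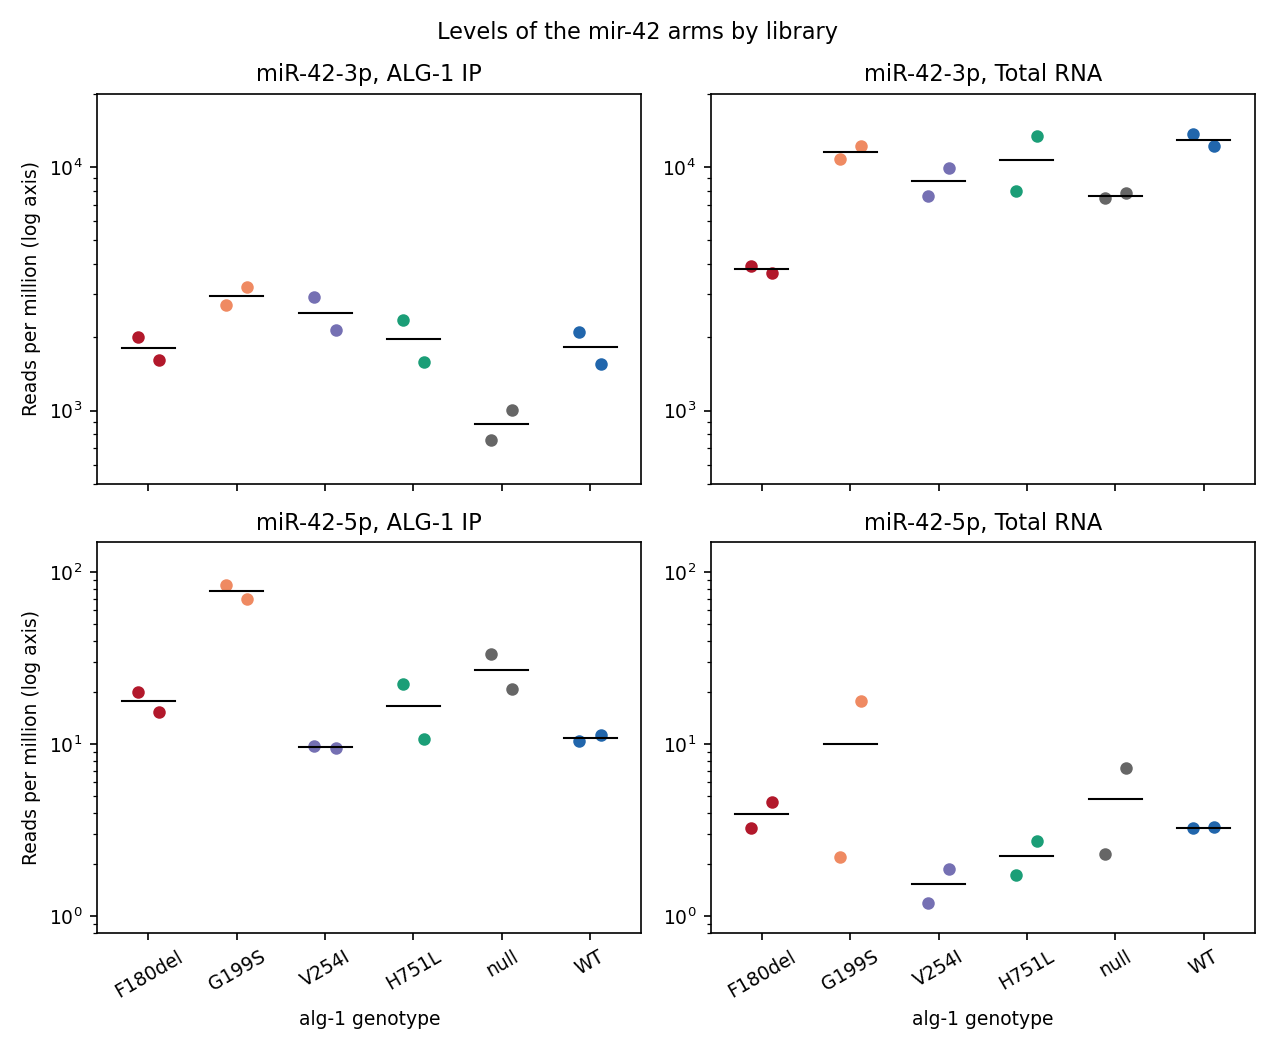
Level of miR-42-3p (upper panels) and miR-42-5p (lower panels) in RPM on log axes, in ALG-1 IP (left) and total RNA (right), with 1 point per library and a line at the mean of the 2 libraries of each alg-1 genotype. The 3p arm lies lower in IP than in total RNA in every genotype, the 5p arm lies higher, and F180del has the lowest 3p level in total RNA.

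In total RNA, miR-42-3p was lowest in F180del. F180del had 3938 and 3674 RPM, and G199S had 10777 and 12157 RPM. V254I had 7569 and 9923 RPM, and H751L had 7933 and 13369 RPM. The null had 7440 and 7800 RPM, and WT had 13683 and 12129 RPM. Both F180del libraries lay below the other 10. From the top, the means ran WT, G199S, H751L, V254I, null and F180del. Each genotype overlapped the next in that order, apart from F180del, whose 3806 ± 187 RPM (SD, n = 2) lay apart from the 7620 ± 255 RPM of the null (SD, n = 2). Scaled by the trimmed mean of M-values (TMM), miR-42-3p differed from WT by -2.25 on the log2 scale in F180del and by -0.36 in G199S. These 2 contrasts are the ones by which mir-42 was chosen. Scaled to library totals, they were -1.76 in F180del and -0.17 in G199S.

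In ALG-1 IP the order of the genotypes was another one. F180del had 1997 and 1618 RPM, and G199S had 2711 and 3203 RPM. V254I had 2914 and 2137 RPM, and H751L had 2348 and 1583 RPM. The null had 760.9 and 1006 RPM, and WT had 2101 and 1552 RPM. Only the null stood apart from its neighbour in the order, with both libraries below the other 10. F180del, which was lowest in total RNA, averaged 1807 ± 267 RPM in IP, against 1827 ± 388 RPM in WT IP (SD, n = 2 each). On the TMM scale miR-42-3p in IP differed from WT by -0.67 on the log2 scale in F180del and by 0.41 in G199S, and with library totals by -0.02 in F180del and by 0.70 in G199S.

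V254I, H751L and the null were not used to choose mir-42, and their comparisons with WT were tested. All of these, the interaction with WT included, share the WT libraries with the contrasts by which mir-42 was chosen. The test was edgeR's quasi-likelihood test, adjusted over all microRNAs. In total RNA no change of miR-42-3p passed the adjusted p of 0.05. V254I differed by -0.55 ± 0.51 on the log2 scale (SE; adjusted p = 0.899), where edgeR called 0% of the 303 microRNAs tested (16 at an unadjusted p under 0.05, and 0 by DESeq2). H751L differed by -0.15 ± 0.51 (edgeR adjusted p = 0.977), with 1.98% of microRNAs called in either direction. The null differed by -0.88 ± 0.51 (edgeR adjusted p = 0.307), with 11.9% called. Both null libraries were below both WT libraries, and the same holds for V254I.

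In IP, miR-42-3p did not pass in V254I (0.28 ± 0.32, edgeR adjusted p = 0.993; 0% of 269 microRNAs called, 8 at an unadjusted p under 0.05, 0 by DESeq2) or in H751L (0.34 ± 0.32, edgeR adjusted p = 0.640; 2.23% called). In the null it lay below WT by the RPM values above, but did not pass on the TMM scale, at -0.75 ± 0.33 (edgeR adjusted p = 0.0857), where 24.2% of microRNAs were called lower and the median over all of them was -0.77. That value depends on single null libraries: it was 0.09 without null IP library 1 and -1.17 without null IP library 2 (edgeR adjusted p = 0.0183). With library totals it was -1.05 (edgeR adjusted p = 0.0251).

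Against the null, whose libraries are shared by both comparisons, miR-42-3p in IP was higher in V254I by 1.02 ± 0.33 (edgeR adjusted p = 0.0288) and in H751L by 1.09 ± 0.33 (edgeR adjusted p = 0.0250). Of the 269 microRNAs, 28.3% were called higher in V254I and 23.8% in H751L, with medians of 0.99 and 0.63, so the size for miR-42-3p was near that of the microRNAs as a whole in V254I. Without null IP library 1 the values were 0.26 in V254I and 0.37 in H751L and neither passed. The V254I call was also lost without either V254I IP library (0.67 without library 1, 1.18 without library 2), and the H751L call without H751L IP library 1 (0.93). In total RNA the differences from the null were 0.33 ± 0.51 in V254I (edgeR adjusted p = 0.746; 11.6% called) and 0.73 ± 0.51 in H751L (edgeR adjusted p = 0.516; 3.30% called).

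miR-42-5p, the passenger arm, was highest in G199S IP. G199S IP had 84.63 and 70.38 RPM, and the null IP had 33.27 and 21.0 RPM. F180del IP had 20.05 and 15.49 RPM, and H751L IP had 22.55 and 10.74 RPM. V254I IP had 9.809 and 9.563 RPM, and WT IP had 10.38 and 11.28 RPM. Both G199S libraries lay above the other 10 IP libraries, and both null libraries lay above those of V254I and WT. As descriptive values, since G199S and F180del were used for the choice, miR-42-5p in IP differed from WT by 2.53 on the log2 scale in G199S and by 0.04 in F180del. A higher 5p level in G199S IP was not particular to mir-42. The 6 fitted 5p arms of mir-35 to mir-41 were all higher in G199S IP than in WT IP, with a median of 6.27, against 0.24 over all microRNAs. miR-44-5p, of the neighbour mir-44, averaged 2508 RPM in G199S IP and 19.36 RPM in WT IP.

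In the IP of the null, miR-42-5p was higher than in WT by 1.54 ± 0.51 (edgeR adjusted p = 0.0359), where 17.1% of microRNAs were called higher. The call was lost without WT IP library 1 (1.40, edgeR adjusted p = 0.168) or WT IP library 2 (1.68, edgeR adjusted p = 0.109). V254I (-0.36 ± 0.50, edgeR adjusted p = 0.993) and H751L (0.82 ± 0.50, edgeR adjusted p = 0.438) did not pass. Against the null IP, miR-42-5p was lower in V254I (-1.89 ± 0.51 on the log2 scale, edgeR adjusted p = 0.0136; 18.6% called lower), a call lost without either V254I IP library (edgeR adjusted p = 0.11 and 0.085). In H751L it was at -0.72 ± 0.50 against the null IP and did not pass (edgeR adjusted p = 0.272; 39.8% called in either direction). Unlike the 3p arm, the 5p arm was thus not lowest in the null IP.

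In total RNA miR-42-5p was near the limit of a precise level. F180del had 3.254 and 4.605 RPM, and G199S had 2.205 and 17.91 RPM. V254I had 1.185 and 1.874 RPM, and H751L had 1.744 and 2.734 RPM. The null had 2.291 and 7.241 RPM, and WT had 3.247 and 3.283 RPM. G199S total library 2 was the highest of the 12, while G199S total library 1 lay below both WT libraries, and the difference of G199S from WT, 1.48 on the log2 scale, was -0.72 without G199S total library 2. The difference from WT was -1.09 ± 1.05 in V254I, -0.42 ± 1.04 in H751L and 0.40 ± 1.03 in the null, and none passed (edgeR adjusted p = 0.899, 0.965 and 0.869). The value for the null was -0.92 without null total library 2 and -0.08 without WT total library 1. Against the null it was -1.49 ± 1.06 in V254I (edgeR adjusted p = 0.400) and -0.82 ± 1.04 in H751L (edgeR adjusted p = 0.829). The H751L value was 0.28 without null total library 2, and the V254I value ranged from -2.07 to -0.14 over the libraries left out.

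The comparison of IP with total RNA gives the level of each arm in the IP relative to total RNA. In V254I, H751L and the null, where it was tested, miR-42-3p was lower and miR-42-5p higher in IP than in total RNA. The null IP, which serves as the background of the IP, thus showed the same directions. The comparison therefore cannot tell recovery with ALG-1 from background. In F180del, G199S and WT, whose total libraries served to choose mir-42, the values are a description. By mean RPM, the total level of miR-42-3p was 2.11 times its IP level in F180del, 3.88 in G199S, 3.46 in V254I, 5.42 in H751L, 8.62 in the null and 7.07 in WT. By the same measure, the IP level of miR-42-5p was 4.52 times its total level in F180del, 7.71 in G199S, 6.33 in V254I, 7.43 in H751L, 5.69 in the null and 3.32 in WT. Within each genotype, both IP libraries lay on 1 side of both total libraries for each arm. A difference from WT in the size of these contrasts did not pass for V254I, H751L or the null.

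On the TMM scale over all 24 libraries, miR-42-3p in IP differed from total RNA by -1.56 ± 0.41 in V254I (edgeR adjusted p = 0.0184; 9.84% of 315 microRNAs called lower) and by -1.29 ± 0.41 in H751L (adjusted p = 0.0206; 15.6%). In the null it differed by -2.06 ± 0.42 (edgeR adjusted p = 0.000845; 22.5% called lower). The V254I call was lost on leaving out any 1 of its 4 libraries, with values from -1.45 to -0.94. The H751L call was lost without total library 2, IP library 1 or IP library 2 (-1.15, -1.73 and -1.10), and the null call under none of these. As descriptive values, the difference was -1.41 in F180del, -1.70 in G199S and -2.27 in WT. The TMM factors of H751L, the null and WT were lower in IP than in total RNA, which makes these differences smaller than by RPM. The order of the genotypes therefore depends on the scaling. By mean RPM the total level was 5.42 times the IP level in H751L, against 3.46 in V254I, and 8.62 in the null, against 7.07 in WT. miR-42-3p was not among the most depleted microRNAs: counted from the lowest of the 315, it ranked 68 in WT, 74 in G199S, 85 in V254I, 87 in F180del, 116 in H751L and 128 in the null. The median over all microRNAs was itself below 0, from -0.88 in the null to -0.27 in G199S.

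miR-42-5p in IP was higher than in total RNA by 2.91 ± 0.83 in V254I (edgeR adjusted p = 0.0285; 3.81% called higher), by 4.00 ± 0.86 in H751L (adjusted p = 0.0017; 15.2%) and by 3.42 ± 0.84 in the null (adjusted p = 0.004; 13.0%). The calls in H751L and the null held on leaving out any 1 library, and that in V254I was lost without any 1 of the 4 libraries (2.89 to 3.67). As descriptive values, the difference was 1.82 in F180del, 3.19 in G199S and 2.30 in WT. The G199S value was 5.39 without G199S total library 2. The same TMM factors enlarge the differences of miR-42-5p in H751L, the null and WT beyond the RPM values. By mean RPM the IP level was 7.71 times the total level in G199S and 7.43 in H751L. Counted from the highest of the 315 microRNAs, miR-42-5p ranked 6 in G199S, 9 in V254I, 20 in the null, 22 in H751L, 24 in F180del and 38 in WT.

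**Figure D2:**
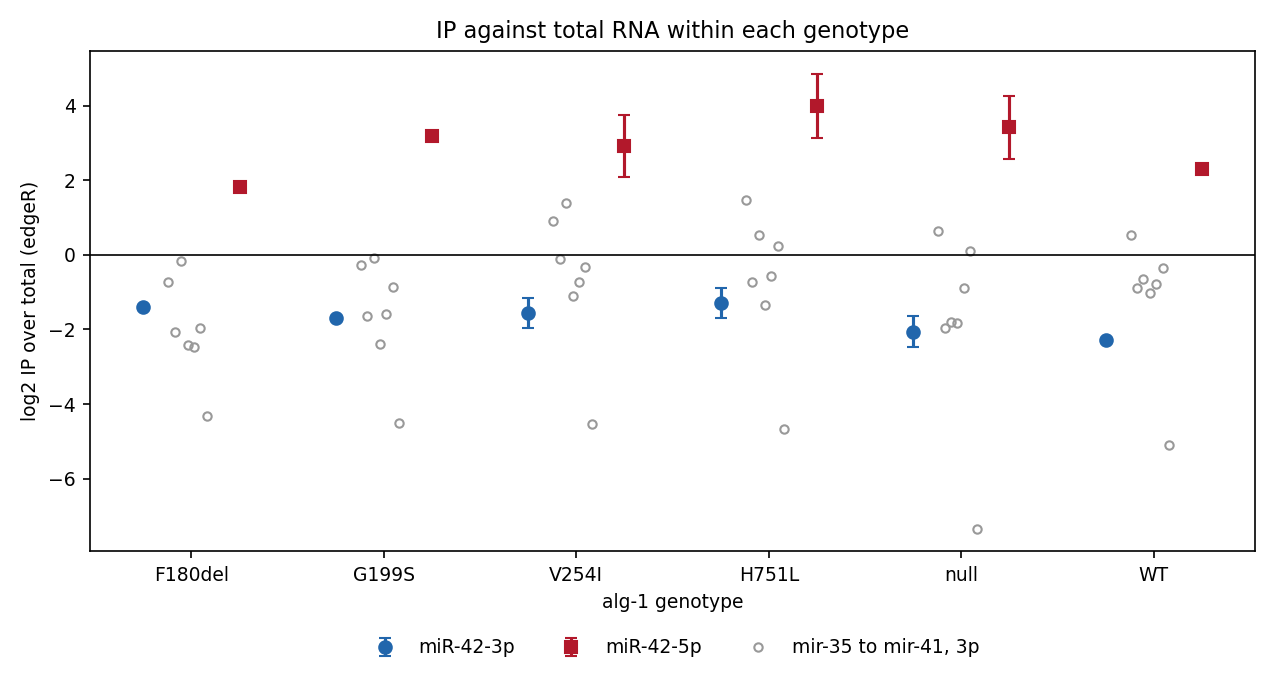
Log2 difference of ALG-1 IP over total RNA from edgeR for miR-42-3p (filled circles) and miR-42-5p (squares) in each alg-1 genotype, with bars of 1 SE for V254I, H751L and the null, where the difference was tested, beside the 3p arms of mir-35 to mir-41 (open circles, no error shown). miR-42-3p lies from -2.27 to -1.29 and miR-42-5p from 1.82 to 4.00, on opposite sides of 0 in all 6 genotypes.

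Whether the IP to total difference itself differed from WT was tested as an interaction. For miR-42-3p the difference from WT was 0.71 ± 0.57 in V254I (edgeR adjusted p = 1; 0% called, 5 at an unadjusted p under 0.05 and 0 by DESeq2) and 0.97 ± 0.57 in H751L (adjusted p = 0.730; 0% called by edgeR, 27 at an unadjusted p under 0.05 and 3 by DESeq2). In the null it was 0.21 ± 0.57 (edgeR adjusted p = 0.973; 1.27% called), and its sign was not stable: it was -0.29 with library totals and ran from -0.91 without null IP library 2 to 0.33 over the libraries left out. For miR-42-5p it was 0.61 ± 1.10 in V254I, 1.71 ± 1.11 in H751L and 1.12 ± 1.10 in the null, and none passed (edgeR adjusted p = 1, 0.806 and 0.700). As descriptive values, miR-42-3p had 0.85 in F180del and 0.56 in G199S, and miR-42-5p -0.48 in F180del and 0.90 in G199S.

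The share of the 5p arm among all reads of the mir-42 hairpin compares the arms within a library and so does not depend on the scaling between libraries. It was under 5% in every library. It was 0.994% and 0.948% in F180del IP, 3.03% and 2.15% in G199S IP, and 0.336% and 0.446% in V254I IP. It was 0.951% and 0.674% in H751L IP, 4.19% and 2.04% in the null IP, and 0.492% and 0.722% in WT IP. In total RNA it was 0.0826% and 0.125% in F180del, 0.0205% and 0.147% in G199S, and 0.0157% and 0.0189% in V254I. The lowest IP share, 0.336% in V254I, had an exact 95% binomial interval of 0.279% to 0.400%, and the highest total share, 0.147% in G199S, one of 0.126% to 0.171%. In total RNA it was 0.0220% and 0.0204% in H751L, 0.0308% and 0.0928% in the null, and 0.0237% and 0.0271% in WT. The IP and total libraries therefore did not overlap over all 24, while among the genotypes the null and G199S were highest in IP and V254I was lowest in both fractions. In total RNA the place of V254I is within counting error, as it rests on 15 and 18 reads of miR-42-5p. Its exact 95% binomial intervals, 0.00876% to 0.0258% and 0.0112% to 0.0298%, overlapped those of H751L and WT.

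**Figure D3:**
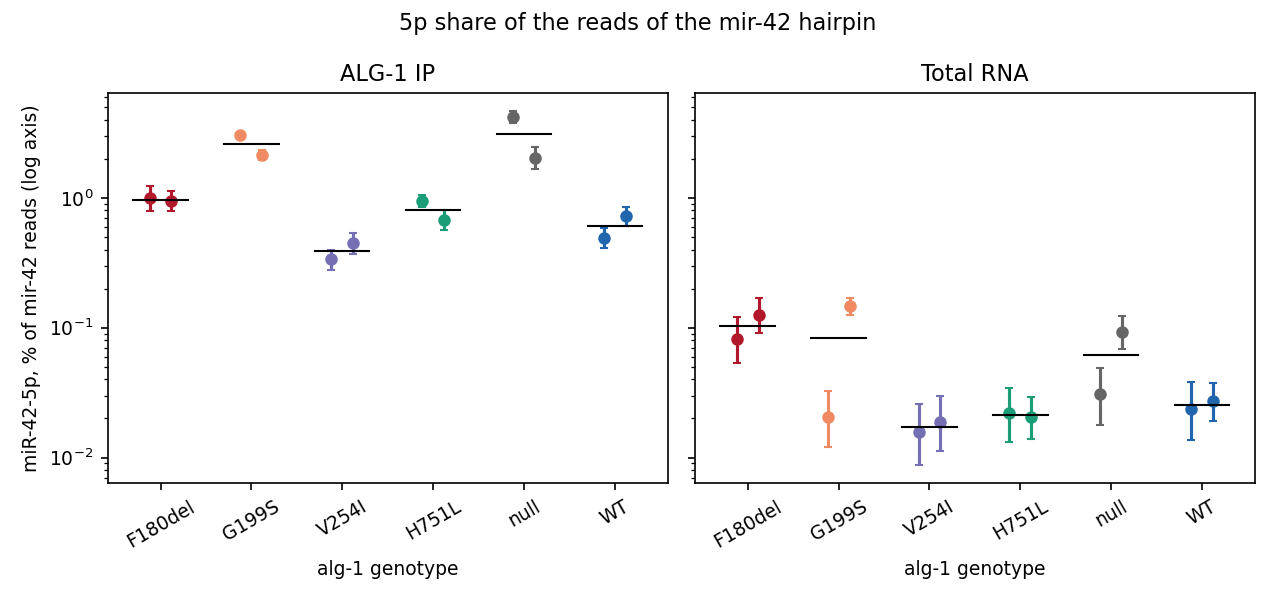
Share of miR-42-5p among the reads of both mir-42 arms in percent on a log axis, in ALG-1 IP (left) and total RNA (right), with 1 point per library, bars of the exact 95% binomial interval (counting error only) and a line at the mean of each alg-1 genotype. Every IP library, from 0.336% up, lies above every total library, of which the highest is at 0.147%.

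The log2 ratio of 5p to 3p reads was fitted with limma over the 94 hairpins whose lesser arm averaged at least 10 reads. Its difference between IP and total RNA follows from the values of the arms above and is given without a test. It was 3.25 in F180del, 5.56 in G199S, 4.46 in V254I, 5.22 in H751L, 5.80 in the null and 4.54 in WT, while the median hairpin moved by 0.16 to 0.81. mir-42 ranked 1 of the 94 hairpins in G199S and between 7 and 15 in the other genotypes. The G199S value ran from 4.15 to 6.96 over the libraries left out. The null, the background of the IP, had the largest value. Of the relatives and neighbours of mir-42, mir-41 also moved toward the 5p arm in every genotype (2.26 to 4.22), and so did mir-44 (0.25 to 2.50). The values of mir-41 are imprecise, since miR-41-3p had 0 to 76 reads per IP library and miR-41-5p 0 and 20 reads in the null IP. For mir-38 and mir-40 there is no value, as their lesser arms averaged under 10 reads. mir-35, mir-36, mir-37, mir-39 and mir-43 moved toward either arm, depending on the genotype. In the null, mir-36 moved by 7.75, a value that rests on few reads. In null IP library 1, miR-36-3p had 0 reads and miR-36-5p had 59. In null IP library 2 they had 41 and 8, so the 5p arm was the larger one in library 1 only.

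Between genotypes, the mir-42 ratio in IP was higher in the null than in WT by 2.33 ± 0.57 (limma adjusted p = 0.0241; 12.7% of 79 hairpins called higher). This call was lost without WT IP library 1 (2.05, limma adjusted p = 0.119) or WT IP library 2 (2.61, adjusted p = 0.0834). In V254I the ratio in IP differed from WT by -0.63 ± 0.57 (limma adjusted p = 0.983; 0% called, and 0 at an unadjusted p under 0.05) and in H751L by 0.43 ± 0.57 (adjusted p = 0.812; 1.27%). In total RNA it differed by -0.55 ± 0.88 in V254I (limma adjusted p = 0.813; 0% of 99 hairpins called, and 1 at an unadjusted p under 0.05), by -0.26 ± 0.88 in H751L (adjusted p = 0.908; 3.03%) and by 1.07 ± 0.88 in the null (adjusted p = 0.443; 14.1%). As descriptive values, the ratio differed from WT by 0.71 in F180del IP, 2.12 in G199S IP, 2.00 in F180del total RNA and 1.11 in G199S total RNA.

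Within the miR-35 family, miR-42-3p was the main member in total RNA of V254I, H751L, the null and WT and held a smaller share in F180del and G199S. In total RNA its share of the reads of the 8 family 3p arms was 20.5% and 27.0% in F180del, and 8.88% and 12.7% in G199S. It was 69.3% and 78.1% in V254I, 75.1% and 82.7% in H751L, 69.9% and 70.9% in the null, and 69.4% and 78.1% in WT. The F180del and G199S libraries lay below all others, which is what the choice of mir-42 rested on. In IP the share was 23.6% and 18.8% in F180del, 4.78% and 5.11% in G199S, 45.9% and 39.3% in V254I, and 51.7% and 45.8% in H751L. It was 32.3% and 39.1% in the null IP, and 38.9% and 35.2% in WT IP. In V254I, H751L, the null and WT every IP share was below every total share.

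The summed 3p level of mir-35 to mir-41 shows the other side of these shares. In total RNA the sum was 15234 and 9945 RPM in F180del and 110596 and 83272 RPM in G199S. It was 3357 and 2787 RPM in V254I, 2633 and 2799 RPM in H751L, 3204 and 3198 RPM in the null, and 6036 and 3403 RPM in WT. In IP the sum was 6452 and 7010 RPM in F180del, 54012 and 59448 RPM in G199S, 3435 and 3306 RPM in V254I, 2198 and 1873 RPM in H751L, 1593 and 1566 RPM in the null, and 3294 and 2863 RPM in WT. In G199S total RNA the cluster was thus high while miR-42-3p lay at 11467 ± 976 RPM, against 12906 ± 1099 RPM in WT (SD, n = 2 each).

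**Figure D4:**
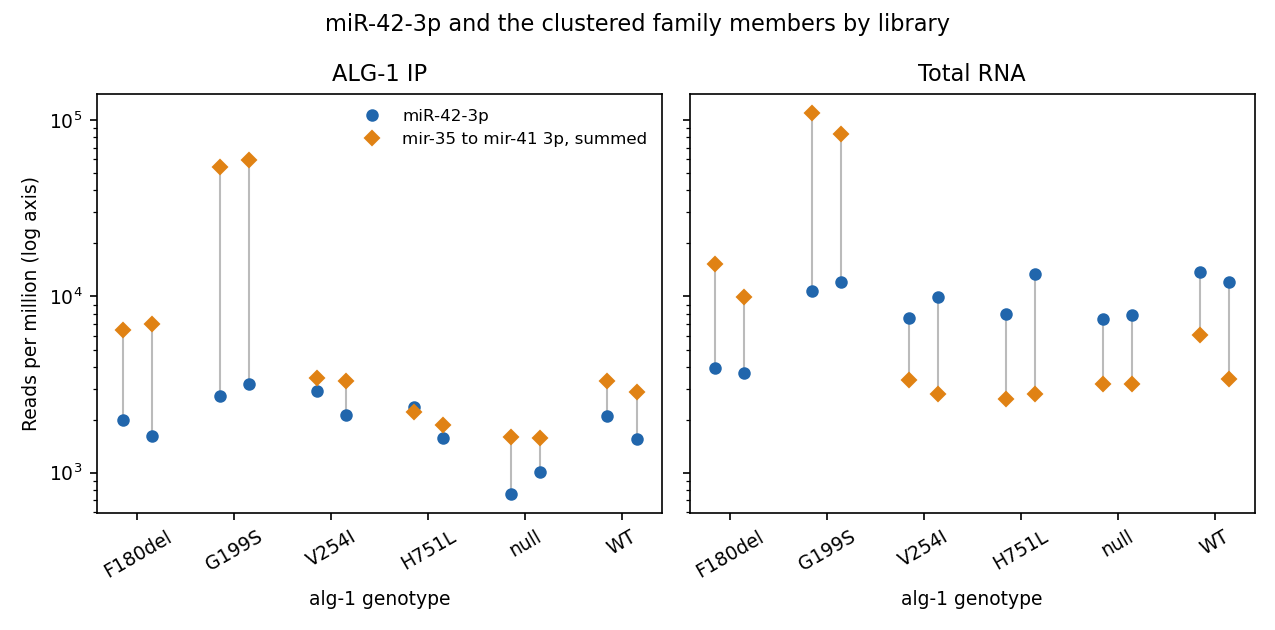
Level of miR-42-3p (circles) and summed level of the 3p arms of mir-35 to mir-41 (diamonds) in RPM on a log axis, in ALG-1 IP (left) and total RNA (right), with a line joining the values of each library. The sum lies above miR-42-3p in every F180del and G199S library, and below it in the total RNA of V254I, H751L, the null and WT.

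Among V254I, H751L, the null and WT, which were not used for the choice apart from WT as the comparator, the ratio of miR-42-3p to the mir-35 to mir-41 sum differed by up to 0.67 on the log2 scale between group means in total RNA (exact permutation test over 8 libraries, p = 0.495) and by up to 0.78 in IP (exact permutation test, p = 0.105). The exact permutation p-values, here and for miR-43-3p below, belong to the F statistic, which sets the variation among genotypes against that within them. They do not belong to the largest difference between group means. The smallest p that the 105 regroupings allow is 0.00952.

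The relatives in the cluster were compared between the fractions in the same way. Medians of the log2 difference of IP over total RNA over the 7 3p arms of mir-35 to mir-41 were -2.08 in F180del, -1.59 in G199S, -0.32 in V254I, -0.58 in H751L, -1.79 in the null and -0.79 in WT. In the null, edgeR called 2 of the 7 lower in IP (miR-37-3p and miR-41-3p), against 22.5% of all microRNAs. In V254I and H751L it called miR-41-3p alone, 1 of 7, against 9.84% and 15.6% of all, which is near the background. miR-41-3p was at 0 to 76 reads per IP library, against 46 to 1686 reads per total library. In H751L, miR-35-3p was higher in IP, at 1074 ± 10.8 RPM, against 831 ± 40.6 RPM in total RNA (SD, n = 2 each). On the TMM scale the log2 difference was 1.48 ± 0.37 (SE; edgeR adjusted p = 0.00548). The TMM factors of H751L, which were lower in IP than in total RNA, enlarge it beyond the RPM values. That is 1 of the 7 arms, where 15.2% of all microRNAs were called higher, which is near the background. Whether miR-42-3p differed from these arms was not tested.

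Of the 7 5p arms of mir-35 to mir-41, the passengers, edgeR called miR-36-5p higher in IP in H751L and in the null. That is 1 of 7, near the 15.2% and 13.0% of all microRNAs called higher there. miR-36-5p rested on 3 and 9 reads in H751L IP, against 0 and 1 in H751L total RNA, and on 59 and 8 reads in the null IP, against 5 and 6 in null total RNA. Whether the arms of mir-42 differed from those of its relatives was not tested.

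Of the neighbours, mir-43 was far less abundant than mir-42, while miR-44-3p was higher than miR-42-3p in every IP library. miR-43-3p had 0 reads in null IP library 1 and 0.574 to 6.31 RPM in the other IP libraries, against 2.47 to 34.8 RPM in total RNA, and its IP to total difference passed in no genotype. miR-43-5p was lower in IP in the null, where null IP library 1 had 0 reads and library 2 had 0.857 RPM, against 18.5 and 20.2 RPM in null total RNA (edgeR adjusted p = 0.0133; 22.5% called lower). miR-44-3p had 1646 to 15292 RPM in IP and 5530 to 27549 RPM in total RNA, and no difference between the fractions passed. Its values cannot be separated from miR-45-3p of the hairpin 8771 bases away, which was listed at 1646 to 15341 RPM in IP and 5537 to 27553 RPM in total RNA. The ratio of miR-42-3p to miR-43-3p among V254I, H751L, the null and WT differed by up to 1.25 on the log2 scale in total RNA (exact permutation test, p = 0.590) and by up to 1.96 in IP (exact permutation test, p = 0.790). In total RNA the spread was 2.67 without null total library 2 (exact permutation test, p = 0.0286).

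The microRNAs whose levels ran most like those of miR-42-3p were not its relatives. Over the 12 total libraries, the highest Pearson correlations of log2(RPM + 1) with miR-42-3p were 0.880 for miR-2220-3p, 0.860 for lsy-6-3p, which sets the asymmetry of a pair of taste neurons, 0.858 for miR-49-3p, 0.856 for miR-4808-3p and 0.847 for miR-355-5p, with Spearman correlations of 0.741 to 0.902. The 3p arms of mir-35 to mir-41 had -0.082 to 0.179, miR-44-3p had 0.549 and miR-42-5p had 0.072. These libraries include the total RNA of F180del and G199S, where mir-42 was chosen for differing from its family. The low values of the family arms in total RNA therefore follow in part from that choice. Over the 12 IP libraries the highest were 0.927 for miR-76-3p, 0.909 for miR-4810b-3p, 0.904 for miR-4813-3p, 0.903 for miR-124-3p and 0.891 for miR-4807. Their Spearman correlations were 0.776 to 0.914. While miR-124-3p is a neuronal marker, the other one, miR-791-3p, was not among the 5 highest in IP. In total RNA neither marker was among the 5 highest, so no cell type is read from these values. The family 3p arms had 0.452 to 0.788 in IP, and miR-42-5p had 0.152. The points share genotypes, and the levels within a library share its total, so these correlations are descriptions.

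For miR-42-5p in IP the highest were 0.836 for miR-51-3p, 0.813 for miR-37-5p, 0.805 for miR-39-3p, 0.801 for miR-39-5p and 0.799 for miR-790-3p. Of these, miR-37-5p, miR-39-3p and miR-39-5p come from the mir-35 to mir-41 cluster, and their Spearman correlations were 0.301 to 0.501. In total RNA, where the reads were few, the highest value for miR-42-5p was 0.661, for miR-34-3p.

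Other microRNA groups moved between the fractions in some of the libraries where mir-42 did. Of 6 larval timing microRNAs, among them let-7-5p and lin-4-5p, which order the larval stages, edgeR called 4 higher in IP than in total RNA in the null (median of the list 2.38 on the log2 scale), where 13.0% of all microRNAs were called higher. It called 2 in H751L (median 1.55; 15.2% of all) and 1 in WT (0.92; 9.21% of all), the last of which is near the background. None of the 6 was called in F180del, G199S or V254I, where the medians were 0.01, 0.62 and 0.53 and 2.22%, 2.86% and 3.81% of all were called higher. Of 6 members of the miR-51 family, which is broadly expressed, 5 were called higher in IP in H751L (median 2.57) and 4 in the null (1.96), against the same 15.2% and 13.0%. In both genotypes the TMM factors were lower in IP than in total RNA, which enlarges the medians of both lists beyond the RPM values. In H751L they were 0.599 and 0.517 in IP, against 1.079 and 1.368 in total RNA. There miR-51-5p, which was not called, averaged 16017 RPM in IP and 16636 RPM in total RNA. The 5 called members had higher mean RPM in IP as well. Whether the calls of these lists hold with library totals was not tested. The 1 of 6 called in V254I (0.77) and in WT (1.62) is a single microRNA and is not read as a change of the list. None was called in F180del (0.67) or G199S (0.71). In the null IP against WT IP, 4 of the 6 larval timing microRNAs were called higher, against 17.1% of all, and 1 lower, against 24.2%, and of the miR-51 family 1 was called higher. Their part in the relative levels of miR-42-3p was not tested.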

How the data were processed

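Small RNA was sequenced from whole animals in 24 libraries, 2 for each of 12 groups. The authors deposited raw read counts per mature microRNA and precursor (450 rows, 253 precursors) and a sheet of RPM, per the file headers. Per the submitters' processing notes, the tools were Bowtie 1.2.2, DESeq2, FastQC 0.11.8 and cutadapt, with no role stated for any. Whether counting used strand, the annotation of microRNAs and the build of the genome are all not given in the sources used here. The RPM recomputed from the counts were within 1 of the deposited RPM in 100% of values. A sheet of 48 value columns that name no sample was not used.

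For tests, 13 rows that repeat a mature name were removed, leaving 437 microRNAs. Counts were fitted with edgeR 4.0.16 in R 4.3.3 (filterByExpr, TMM, quasi-likelihood test, Benjamini-Hochberg adjustment over all microRNAs tested): 303 over the 12 total libraries, 269 over the 12 IP libraries and 315 over all 24. The 5p to 3p ratios (0.5 reads added) were fitted with limma 3.58.1. Ratios to relatives also had 0.5 reads added, since miR-43-3p had 0 reads in 1 library. They used two-sided exact permutation tests of the F statistic among genotypes. Alternatives were RLE factors, library totals, no filter, DESeq2 1.42.0, the compared groups alone, all precursor rows, a replicate block and leaving out each library. The edgeR and limma scripts were tested on simulated data. Intervals are exact binomial at 95%, the limit of a count of 0 is 3 counts, and both cover counting error only.

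mir-42, its lists and the tests were chosen with earlier results of these data known. Tests of IP against total RNA had been planned for all genotypes, but in F180del, G199S and WT they reuse the total libraries that chose mir-42, so values are given there without a test. The ratio of IP against total RNA and the alternatives for miR-42-5p were added after the values were seen. Named beside mir-42 are the miR-35 family, the neighbours mir-43 to mir-45, larval timing and miR-51 family lists, and the 5 microRNAs with the highest Pearson correlation. miR-36-5p, miR-35-3p and other single list members are named because they passed. No microRNA sequence was used.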

Additional observations from a re-analysis of the deposited data

How the results depend on the processing

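A tested value counted as kept where its direction and its side of the threshold stayed the same. An untested value counted as kept where it changed by less than the SD between replicates of the compared groups, and otherwise as moved. With DESeq2, 41 of the values given were kept and 9 untested values moved. With RLE factors these numbers were the same, with no filter on low counts 41 were kept, 3 lost a call and 6 moved, and with library totals 32 were kept, 1 lost its call, 1 gained one, 1 changed sign and 15 moved. miR-42-3p in IP against total RNA, given without a test, moved in F180del with library totals (-1.07), no filter (-0.79) and the compared groups alone (-1.16), in G199S with RLE factors (-1.87), DESeq2 (-1.87), library totals (-1.96) and no filter (-1.41), and in WT with RLE factors (-2.72), DESeq2 (-2.72) and library totals (-2.82). Where it was tested, it lost its call without the filter in V254I (-1.31) and H751L (-1.22), and with the compared groups alone in H751L (-1.76) and the null (-2.31). miR-42-5p in IP against total RNA lost its call in the null with the compared groups alone (3.17) and in V254I with the replicate block (2.96). In IP, the null against WT passed for miR-42-3p with library totals (-1.05), and for miR-42-5p no longer passed with library totals (1.33), no filter (1.54) or the compared groups alone (1.70). The compared groups alone also ended the IP calls of V254I against the null (1.08 for miR-42-3p, -1.83 for miR-42-5p), of H751L against the null for miR-42-3p (1.04) and of the 5p to 3p ratio in the null against WT (2.33), fits that have fewer libraries. The interaction of the null for miR-42-3p changed sign with library totals (-0.29) and with the compared groups alone (-0.26). The cause of these changes was not tested, apart from the smaller number of libraries.

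On leaving out each library in turn, and where a call or a sign changed or an untested value moved, miR-42-3p in IP against total RNA ranged from -1.41 to -0.76 in F180del, -1.90 to -1.60 in G199S, -1.45 to -0.94 in V254I, -1.73 to -1.10 in H751L and -2.38 to -1.94 in WT. miR-42-5p ranged from 1.83 to 2.32 in F180del, 2.26 to 5.39 in G199S, 2.89 to 3.67 in V254I and 2.11 to 2.54 in WT. In IP, miR-42-3p ranged from 0.26 to 1.46 in V254I against the null, 0.37 to 1.53 in H751L against the null and -1.17 to 0.09 in the null against WT, and miR-42-5p from -2.16 to -1.95 in V254I against the null and 1.40 to 1.87 in the null against WT. In total RNA, miR-42-5p ranged from -0.92 to 0.99 in the null against WT (-0.08 without WT total library 1) and from -1.41 to 0.28 in H751L against the null. The interaction of the null for miR-42-3p ranged from -0.91 to 0.33, with -0.22, -0.03 and -0.38 among the values below 0. The 5p to 3p ratio ranged from 1.80 to 2.86 in the null against WT in IP, and miR-42-3p over miR-43-3p in total RNA from 1.18 to 2.67. The replicate block changed no other call. Same-numbered libraries deviated together with a median correlation of 0.303 among total libraries, 0.263 among IP libraries and 0.0169 between the IP and total RNA of a genotype, with highest values of 0.761, 0.548 and 0.409 and a lowest of -0.386. These correlations are between the differences of library 1 from library 2 of each group. In total RNA, these differences correlated at 0.66 to 0.761 among V254I, H751L and the null, and the labels do not pair their libraries. The few reads of miR-42-5p in total RNA limit its levels.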
